A study of Mus musculus with 8 samples.

Results

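The interferon-stimulated genes were measured in bulk RNA from the ventral lobe of the mouse prostate as a module of 41 genes, chosen by name as genes that answer type I or type II interferon, out of 36333 genes with a value. They were kept in 3 subgroups: 31 genes of the type I response, 7 interferon-inducible GTPases, and 3 genes best known from the interferon gamma response that are not GTPases (Irf1, Irf8 and Cd274). The members were chosen with earlier results of these data known, so their shares and medians beside all genes are not independent evidence. The libraries came from 4 hSKP2-KI and 4 wild-type (WT) mice at 12 months of age, with 1 library per mouse. In the hSKP2-KI mice the coding sequence of human SKP2, joined by a P2A peptide, had been placed by CRISPR/Cas9 in exon 1 of the endogenous probasin gene Pbsn, so that the prostate-specific Pbsn promoter drives it. Pbsn is X-linked and the lines were kept by crossing heterozygous females with WT males of the FVB/N strain. The study's text gives no strain for the founders. Several founder lines were made, and which of them was sequenced is not given in the sources used here. The library labels held for the targeted locus: Skp2 ran from 37.3 to 60.6 TPM (each gene's length-corrected share of the transcripts in its library) in the hSKP2-KI prostates and from 1.05 to 2.27 in the WT prostates, and Pbsn from 93.0 to 174 and from 3980 to 9232.

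Interferons are secreted proteins that cells release on sensing foreign or misplaced nucleic acid. Type I interferons bind a receptor of Ifnar1 and Ifnar2 and act through a complex that includes Stat2 and Irf9 and binds the interferon-stimulated response element (ISRE). Interferon gamma, the type II interferon, binds a receptor of Ifngr1 and Ifngr2 and acts on the gamma-activated site (GAS). The induced genes encode sensors of viral RNA and DNA, enzymes that degrade or starve viral nucleic acids, proteins that attach the ubiquitin-like Isg15, and the guanylate-binding and immunity-related GTPases, which attack the vacuoles of intracellular pathogens. Epithelial cells, stromal cells and leukocytes can all express them.

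The sequences upstream of the members' starts are shown first because the module is defined by its response to interferon. The type I response acts through the ISRE, and interferon gamma acts on the GAS. RefSeq promoter windows on GRCm38.p6, each from 250 bases before to 50 bases after an annotated start, were matched for 33 of the 41 members. Usp18, Dhx58, Zbp1, Parp9, Parp14, Ifi27, Rtp4 and Iigp1 had no entry. The ISRE core was searched as GAAANNGAAA on both strands, where N is any base and the other strand reads TTTC, any 2 bases, TTTC, and the GAS as TTCNNNGAA, which reads the same on both strands. Below are 10 of the windows cut to 15 bases on each side of the cores, written 5′ to 3′ on the strand of the gene and ending no later than the last base before the start. Capitals mark the ISRE cores. They show the members called in both comparisons given below whose windows held a core (Oas1a and Gbp2). Beside these are the other GTPases with a window and 3 type I members that were not called (Isg15, Ifit1 and Ifit3). Of the other members called in both, Ifit2 and Samhd1 had windows without a core and Parp9 had no window.
Oas1a (chr5:120907526-120907560, - strand): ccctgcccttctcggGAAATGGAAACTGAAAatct
Isg15 (chr4:156200860-156200911, - strand): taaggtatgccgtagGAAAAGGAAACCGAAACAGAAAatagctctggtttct
Ifit1 (chr19:34640770-34640828, + strand): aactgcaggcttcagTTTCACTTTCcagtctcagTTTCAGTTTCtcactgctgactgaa
Ifit3 (chr19:34583358-34583431, + strand): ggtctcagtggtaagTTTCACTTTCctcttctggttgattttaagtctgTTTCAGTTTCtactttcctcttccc
Gbp2 (chr3:142620589-142620628, + strand): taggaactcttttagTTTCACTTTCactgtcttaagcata
Gbp3 (chr3:142559984-142560029, + strand): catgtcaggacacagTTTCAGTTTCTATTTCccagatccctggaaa
Gbp7 (chr3:142530268-142530307, + strand): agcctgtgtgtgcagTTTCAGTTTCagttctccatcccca
Igtp (chr11:58199507-58199546, + strand): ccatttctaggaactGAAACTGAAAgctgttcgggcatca
Irgm2 (chr11:58214898-58214937, + strand): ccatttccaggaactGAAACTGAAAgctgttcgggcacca
Irgm1 (chr11:48871421-48871465, - strand): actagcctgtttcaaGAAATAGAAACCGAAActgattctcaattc

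An ISRE core was found in 15 of the 33 members (45.5%), against 3.99% of the 27025 genes of the promoter table and 3.57% of the 10376 tested genes with a window. All 6 GTPases with a window held one, as did 9 of 24 type I members (37.5%) and 0 of the 3 gamma genes that are not GTPases. In 13 of the 15 the core lay before the start, with the first base of the first core from 222 bases before it in Stat2 to 20 bases before it in Oas1a. In Ifih1 and Eif2ak2 it lay after the start. Cores overlapped one another in 5 members, among them Isg15 with 3. The stretches printed for the neighbouring genes Igtp and Irgm2 shared 38 of 40 bases. The GAS was found in 11 of 33 members (33.3%), against 9.55% of all genes of the table, and in Bst2 it overlapped an ISRE core. A match describes letters in these windows, and the absence of a match says only that these letters are not in them.

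**Figure D1:**
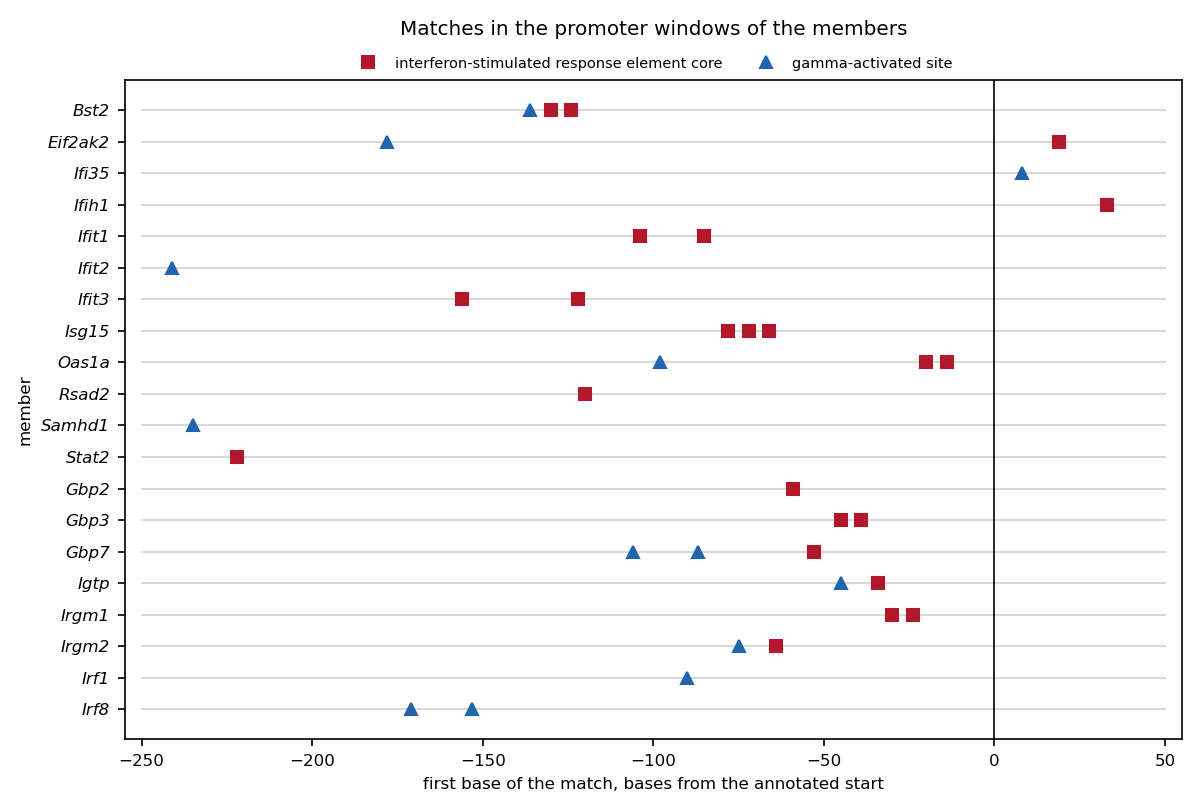
Positions of ISRE cores (red squares) and GAS matches (blue triangles) in the RefSeq promoter windows of the members that held either, with the distance of the first base of each match from the annotated start on the horizontal axis (bases) and 1 row per member. The 6 GTPase rows, from Gbp2 to Irgm2, all hold a red square within 64 bases before the start. Irf1, Irf8 and the type I members Ifit2, Samhd1 and Ifi35 hold blue triangles only.

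Many genes were higher in the hSKP2-KI prostates in TPM, which sets the background for every count of members. The 3 secretory genes Sbp, Spink1 and Sbpl together took 43.1% ± 2.48 of all TPM in WT and 32.9% ± 1.01 in hSKP2-KI prostates (SD, n = 4 each), and TPM is a share of a fixed total. Genes were tested if 4 or more of the 8 libraries reached 1 TPM, which kept 13080, and over these the median log2 fold change, hSKP2-KI minus WT on the log2(TPM + 1) scale, was 0.23, and 89.1% of genes had a positive value. After median-ratio scaling, in which each library is divided by the median over genes of its ratio to the geometric mean, the median was -0.01. Each count is therefore given on both scales. A gene is called when its limma p-value, adjusted by the Benjamini-Hochberg method over all tested genes, is under 0.05. With TPM as deposited 32.7% of all tested genes were called higher in hSKP2-KI and 1.23% lower, and after median-ratio scaling 6.91% and 4.25%.

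Of the 41 interferon-stimulated genes, 36 were tested. In TPM as deposited 14 were called higher in the hSKP2-KI prostates (38.9%, against the 32.7% of all tested genes) and 0 lower at an adjusted p under 0.05 in limma. The 14 include Herc6, which passed the filter only through its hSKP2-KI values. After median-ratio scaling 5 were called higher (13.9%, against 6.91%) and 0 lower: Oas1a, Ifit2, Parp9, Samhd1 and Gbp2. At an unadjusted p under 0.05 the counts were 21 higher and 0 lower in TPM, and 9 higher and 1 lower (Trafd1) after median-ratio scaling. The 36 tested members had a median log2 fold change of 0.37 in TPM and 0.14 after median-ratio scaling, beside 0.23 and -0.01 over all tested genes. Every hSKP2-KI library was above every WT library in 12 of the 36 tested members, against 34.0% of all tested genes, and after median-ratio scaling in 4, against 10.3%. By subgroup, the 26 tested type I members had a median of 0.40 (0.18 after median-ratio scaling) with 10 called (4 after it), the 7 GTPases 0.32 (0.12) with 2 called (1), and the 3 gamma genes 0.34 (0.08) with 2 called (0). The share called from TPM was close to the background share. The count after median-ratio scaling changed with the libraries in the fit. It was 5 without hSKP2-KI replicate 3, 3 without WT replicate 2 or WT replicate 3, 2 without WT replicate 1, hSKP2-KI replicate 1 or hSKP2-KI replicate 2, 2 without WT replicate 4 (1 higher and 1 lower) and 1 without hSKP2-KI replicate 4. Gbp2 was the member still called higher in each of these 8 fits. Of the 14 tested members with an ISRE core in a window, 3 were called higher from TPM. Of the 16 whose windows held none, 8 were, beside the 32.7% of all tested genes. After median-ratio scaling the counts were 2 and 2, and whether they differ was not tested. In bulk tissue a change in the number of cells of a type and a change in RNA per cell cannot be told apart.

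**Figure D2:**
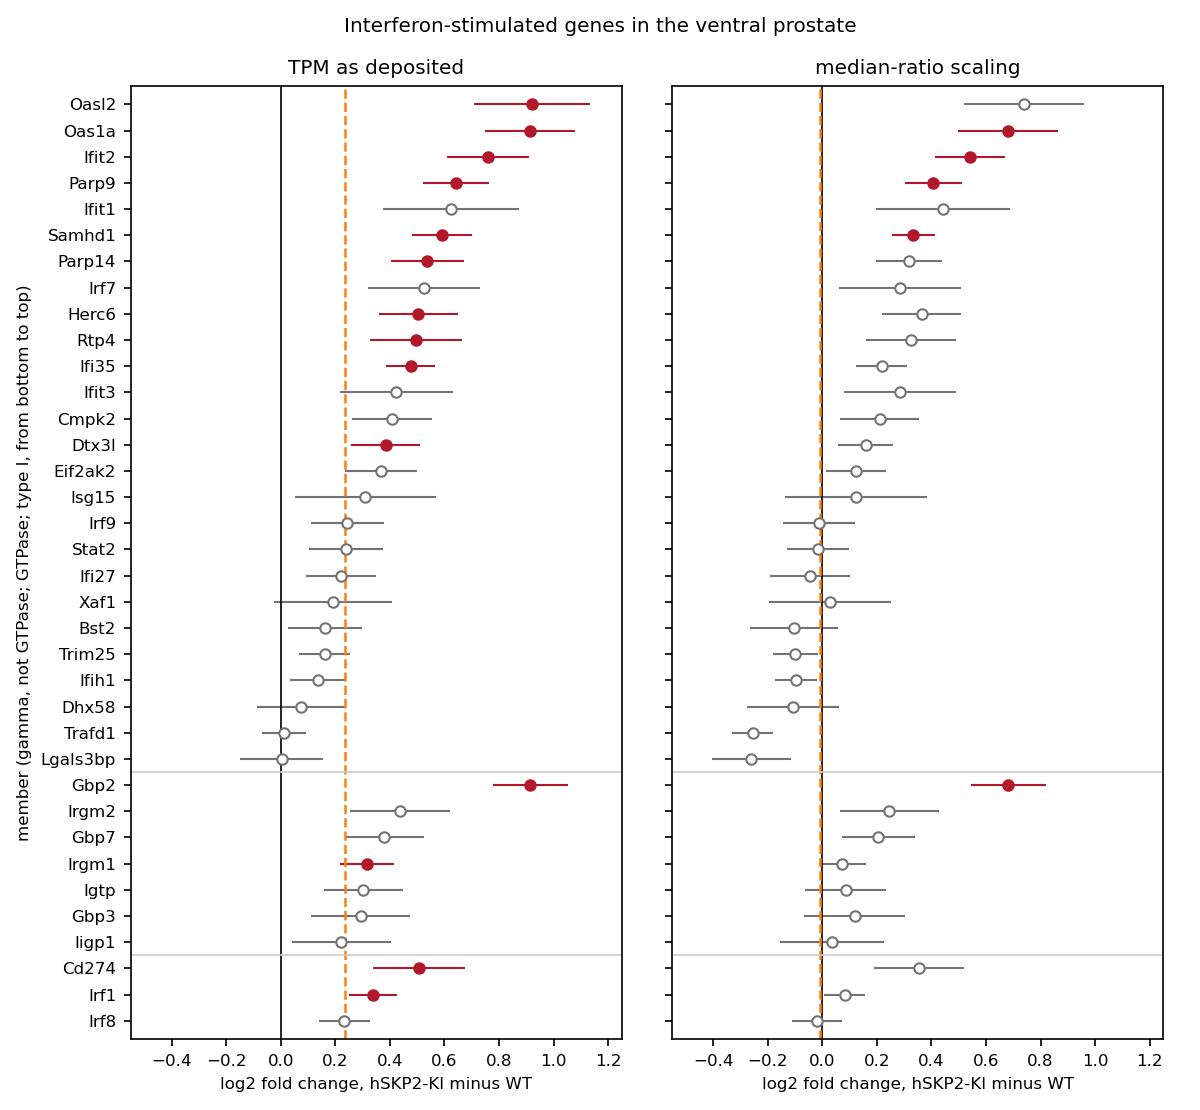
Log2 fold changes (hSKP2-KI minus WT, log2(TPM + 1) scale) with their standard errors for the 36 tested members, from TPM as deposited on the left and after median-ratio scaling on the right, grouped as type I, GTPase and other gamma genes from top to bottom. Filled red points passed an adjusted p of 0.05 and the dashed orange line is the median of all tested genes (0.23 on the left, -0.01 on the right). All 36 points lie above 0 on the left, and 10 lie below 0 on the right.

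**Figure D3:**
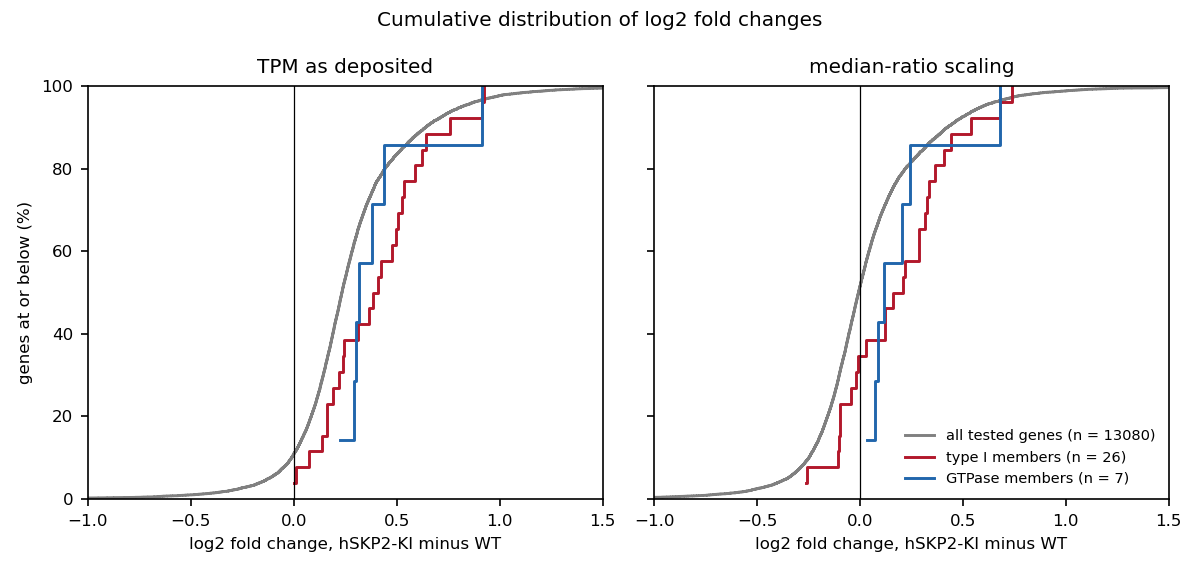
Cumulative share of genes (%) at or below each log2 fold change, hSKP2-KI minus WT, for all 13080 tested genes (grey), the 26 tested type I members (red) and the 7 GTPases (blue), from TPM as deposited and after median-ratio scaling. The grey curve crosses its middle at 0.23 on the left and at -0.01 on the right, and both coloured curves have their middle to the right of it.

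Of the 3 regulators in the type I subgroup 0 were called by limma on either scale, and 1, Irf7, had an unadjusted p under 0.05 in TPM. Over all tested genes 32.7% were called higher from TPM and 6.91% after median-ratio scaling, and 3 genes are too few to set against these shares. Irf7, the factor that amplifies the type I response, stood at 7.90, 7.67, 7.47 and 5.13 TPM in WT replicates 1 to 4 and at 16.7, 9.27, 7.67 and 9.91 TPM in hSKP2-KI replicates 1 to 4. Only hSKP2-KI replicate 1 stood well apart, and hSKP2-KI replicate 3 lay within the WT range (log2 fold change 0.53 ± 0.21 SE, adjusted p = 0.0676 in limma). Irf9, the DNA-binding part of the type I complex, gave 13.7, 16.9, 17.1 and 13.4 TPM in WT and 22.02, 18.2, 14.3 and 18.8 TPM in hSKP2-KI. Stat2, its partner, gave 14.4, 22.7, 22.04 and 18.1 TPM in WT and 21.7, 20.2, 24.6 and 24.4 TPM in hSKP2-KI. Both overlapped between genotypes, and by limma Irf9 differed by 0.24 ± 0.13 (adjusted p = 0.161) and Stat2 by 0.24 ± 0.14 (adjusted p = 0.174) on the log2 scale, close to the median of all genes.

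Irf1, the transcription factor that interferon gamma induces, was higher in every hSKP2-KI library. It stood at 14.6, 15.7, 15.2 and 16.1 TPM in WT and at 19.9, 20, 17.5 and 21.6 TPM in hSKP2-KI, and the log2 difference was 0.34 ± 0.09 (limma adjusted p = 0.0155). After median-ratio scaling the groups overlapped and the change was 0.08 ± 0.08 (adjusted p = 0.525). Irf8, a factor of myeloid and B cells that interferon gamma also induces, stood at 12.8, 12.6, 14.6 and 14.0 TPM in WT and at 15.5, 18.1, 14.5 and 16.0 TPM in hSKP2-KI, and was not called on either scale (adjusted p = 0.0745 and 0.915). Cd274, which encodes the checkpoint ligand PD-L1, ran from 0.603 to 1.44 TPM in WT and from 1.27 to 2.18 TPM in hSKP2-KI. It was called from TPM (0.51 ± 0.17, adjusted p = 0.0406) but in limma fits that left out WT replicate 1, 2 or 4 or hSKP2-KI replicate 2, 3 or 4 it was not, with adjusted p up to 0.105.

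The genes of Isg15 conjugation other than Trim25 were low, and Usp18 was below the filter. Isg15, the ubiquitin-like modifier, ran from 1.37 to 3.01 TPM in WT and from 1.29 to 4.72 TPM in hSKP2-KI (0.31 ± 0.26, adjusted p = 0.339 in limma). Herc6, the mouse ligase that attaches Isg15, stood at 0.816, 0.672, 0.993 and 0.490 TPM in WT and at 1.54, 1.79, 1.096 and 1.46 TPM in hSKP2-KI (0.50 ± 0.14, adjusted p = 0.0231 in limma). It passed the filter only because all hSKP2-KI libraries reached 1 TPM, and it was not called after median-ratio scaling (adjusted p = 0.135) or, from TPM, without WT replicate 4 or hSKP2-KI replicate 2 (adjusted p up to 0.0605). Usp18, which removes Isg15 and damps the type I receptor, stood at 0.334, 0.822, 0.873 and 0.584 TPM in WT and at 3.27, 1.59, 0.966 and 2.18 TPM in hSKP2-KI. The groups did not overlap in TPM and did after median-ratio scaling, and the mean of hSKP2-KI was 3.07 times that of WT. Usp18 was below the filter, and a fit of all genes without a filter gave it 0.82 ± 0.23 (adjusted p = 0.0495 in limma). Usp18, Herc6 and Ifit2 are also in the set of interferon gamma genes that the study displayed. It chose that set on these libraries, so the direction of these genes is not independent evidence. Separately, the study reported USP18 higher by quantitative PCR in PC3 cells, a human prostate cancer line, that overexpressed SKP2. Trim25, a ligase that also acts on the RNA sensor RIG-I, ran from 22.9 to 28.1 TPM in WT and from 26.1 to 31.0 TPM in hSKP2-KI and was not called.

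Among the sensors of nucleic acid, Oas1a rose on both scales, Oasl2 rose in TPM, and the RIG-I-like receptor genes Ifih1 and Dhx58 were not called. Oas1a makes the oligoadenylates that switch on RNase L, and it stood at 5.71, 4.57, 4.57 and 3.90 TPM in WT and at 13.5, 9.59, 7.33 and 9.04 TPM in hSKP2-KI. In TPM every hSKP2-KI library exceeded every WT library, after median-ratio scaling the groups overlapped, and the log2 difference was 0.91 ± 0.17 (limma adjusted p = 0.00386) and 0.68 ± 0.18 after median-ratio scaling (adjusted p = 0.0425). After median-ratio scaling its call was lost without WT replicate 2, 3 or 4 or hSKP2-KI replicate 1, 2 or 4, with fold changes in these fits from 0.52 to 0.72 and adjusted p up to 0.103. Oas1a and Oas1g are near-identical copies, so reads can be split between them, and their sum ran from 4.36 to 6.85 TPM in WT and from 8.67 to 15.7 TPM in hSKP2-KI. Oasl2, a related protein with ubiquitin-like domains, ran from 0.996 to 2.60 TPM in WT and from 2.68 to 5.43 TPM in hSKP2-KI (0.92 ± 0.21 with adjusted p = 0.0103 in limma, and after median-ratio scaling 0.74 ± 0.22 with adjusted p = 0.0587).

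Ifih1, which encodes the RNA sensor MDA5, ran from 5.42 to 6.66 TPM in WT and from 6.34 to 7.23 TPM in hSKP2-KI, and Dhx58, which encodes its partner LGP2, from 1.81 to 2.64 and from 1.76 to 3.36 TPM. Their log2 fold changes in TPM were 0.14 ± 0.10 and 0.08 ± 0.16, under the median of all genes, and -0.10 ± 0.08 and -0.11 ± 0.17 after median-ratio scaling. Eif2ak2, the kinase PKR that halts translation on double-stranded RNA, missed the threshold from TPM (0.37 ± 0.13, adjusted p = 0.0514 in limma). The 2 remaining sensors were below the filter. Zbp1, a sensor of left-handed nucleic acid, ran from 0.234 to 1.07 TPM in WT and from 0.377 to 1.04 TPM in hSKP2-KI, and Oasl1 from 0.224 to 0.987 and from 0.591 to 1.12 TPM.

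Of the 3 IFIT genes, which lie side by side on chromosome 19 and encode proteins that bind foreign 5′ RNA ends, Ifit2 was called. It stood at 2.26, 3.79, 3.97 and 3.38 TPM in WT and at 5.29, 6.59, 6.05 and 7.26 TPM in hSKP2-KI. The genotypes did not overlap on either scale, and the log2 difference was 0.76 ± 0.15 (limma adjusted p = 0.00554) and 0.54 ± 0.13 after median-ratio scaling (adjusted p = 0.0254). The latter call was lost without WT replicate 1 or 4 or hSKP2-KI replicate 2 or 4, with fold changes in these fits from 0.44 to 0.54 and adjusted p up to 0.0675. Ifit1 ran from 1.02 to 3.62 TPM in WT and from 2.78 to 4.12 TPM in hSKP2-KI (0.62 ± 0.25, adjusted p = 0.0714), and Ifit3 from 0.412 to 1.45 and from 0.979 to 2.34 TPM (0.42 ± 0.21, adjusted p = 0.125). The counting could split Ifit3 and its copy Ifit3b, and their sum ran from 0.562 to 1.95 TPM in WT and from 2.00 to 3.82 TPM in hSKP2-KI. Every hSKP2-KI library lay above every WT library in TPM, as in 34.0% of all tested genes. The margin was 1.949 TPM in WT replicate 3 against 1.995 TPM in hSKP2-KI replicate 3. Dividing by their median-ratio factors, 0.894 and 1.096, reverses that order, so the groups overlap after median-ratio scaling.

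The 3 genes of interferon-linked ADP-ribosylation, Parp9, Parp14 and Dtx3l, lie within chr16:35831892-35972621 (GRCm38). All 3 were called higher in TPM, where 32.7% of all tested genes were. After median-ratio scaling 1 of the 3 was, beside 6.91% of all tested genes. Parp9, which works as a pair with the ubiquitin ligase Dtx3l, stood at 4.95, 5.89, 4.89 and 5.17 TPM in WT and at 8.73, 7.97, 7.54 and 10.8 TPM in hSKP2-KI. It did not overlap on either scale and was called on both, with 0.64 ± 0.12 (adjusted p = 0.00455 in limma) and 0.41 ± 0.10 after median-ratio scaling (adjusted p = 0.0345). The latter call was lost without any 1 of the WT replicates and without hSKP2-KI replicate 1 or 4, with fold changes in these fits from 0.32 to 0.43 and adjusted p up to 0.0842. Parp14, a mono-ADP-ribosyltransferase, ran from 2.93 to 4.38 TPM in WT and from 5.11 to 6.64 TPM in hSKP2-KI (0.54 ± 0.13 with adjusted p = 0.0140, and after median-ratio scaling 0.32 ± 0.12 with adjusted p = 0.116). Dtx3l ran from 3.62 to 5.57 TPM in WT and from 5.62 to 6.88 TPM in hSKP2-KI (0.39 ± 0.13, adjusted p = 0.0380 in limma). From TPM its call was kept in limma fits without WT replicate 2 or hSKP2-KI replicate 2. It was lost without any 1 of the other 6 libraries (adjusted p up to 0.0938). After median-ratio scaling Dtx3l gave 0.16 ± 0.10 (adjusted p = 0.3465 in limma). The Parp9 and Dtx3l gene models overlap by 558 bases, and whether the counting used strand is not given in the sources used here, so reads from that stretch cannot be told apart.

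Samhd1, which destroys the nucleotides that viral reverse transcription needs, was the most abundant member called on both scales. It stood at 14.1, 20.5, 16.2 and 17.6 TPM in WT and at 25.9, 26.8, 23.8 and 27.8 TPM in hSKP2-KI, without overlap. It rose by 0.59 ± 0.11 on the log2 scale (adjusted p = 0.00449 in limma) and 0.33 ± 0.08 after median-ratio scaling (adjusted p = 0.0258), where the call was lost without WT replicate 1, 3 or 4 or hSKP2-KI replicate 1, 2 or 4 (fold changes in these fits from 0.29 to 0.33, adjusted p up to 0.0675). Cmpk2, a mitochondrial nucleotide kinase, missed the threshold (0.41 ± 0.15, adjusted p = 0.0520), and its neighbour on chromosome 12, Rsad2, which encodes the antiviral enzyme viperin, was below the filter at 0.251 to 0.961 TPM in WT and 0.495 to 1.03 TPM in hSKP2-KI. Bst2, which encodes the virion-holding protein tetherin, ran from 44.9 to 57.9 TPM in WT and from 41.4 to 66.1 TPM in hSKP2-KI and was not called.

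Trafd1, a negative regulator of innate signalling, was the most abundant of the module and ran from 78.6 to 97.3 TPM in WT and from 81.6 to 90.4 TPM in hSKP2-KI (0.01 ± 0.08, adjusted p = 0.915 in limma). After median-ratio scaling every hSKP2-KI library lay below every WT library (-0.26 ± 0.08, adjusted p = 0.0580). Lgals3bp, a secreted glycoprotein, gave 0.00 ± 0.15 in TPM and -0.26 ± 0.15 after median-ratio scaling, and was not called on either. Ifi27, a mitochondrial protein, ran from 54.5 to 63.5 TPM in WT and from 55.4 to 87.3 TPM in hSKP2-KI and was not called. In WT 11 members had a mean above 10 TPM, and 3 of these were called from TPM (Samhd1, Ifi35 and Irf1), beside 32.7% of all tested genes. Ifi35, a partner of the adaptor Nmi, ran from 18.3 to 21.3 TPM in WT and from 25.3 to 30.8 TPM in hSKP2-KI (0.48 ± 0.09 with adjusted p = 0.00453, and after median-ratio scaling 0.22 ± 0.09 with adjusted p = 0.158). Rtp4, which blocks flavivirus replication, was called from TPM (0.50 ± 0.17, adjusted p = 0.0424) and lost its call without WT replicate 1, 2 or 4 or hSKP2-KI replicate 1, 2 or 4 (adjusted p up to 0.108). Xaf1, a pro-apoptotic protein, ran from 1.02 to 2.78 TPM in WT and from 1.26 to 2.23 TPM in hSKP2-KI and was not called. Ifi44 was below the filter at 0.267 to 0.886 TPM in WT and 0.448 to 1.93 TPM in hSKP2-KI.

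Gbp2, a guanylate-binding protein, had the lowest adjusted p of the module. It stood at 4.50, 4.15, 4.90 and 4.04 TPM in WT and at 8.28, 11.7, 7.27 and 9.95 TPM in hSKP2-KI, where the mean was 2.11 times that of WT. The log2 fold change was 0.91 ± 0.14 (adjusted p = 0.00192 in limma) and 0.68 ± 0.14 after median-ratio scaling (adjusted p = 0.0156), without overlap on either scale. Its neighbours on chromosome 3 did not pass: Gbp3 gave 0.29 ± 0.18 (adjusted p = 0.207) and Gbp7 0.38 ± 0.15 (adjusted p = 0.0639). Whether Gbp2 differed more than its neighbours was not tested. Of the 4 immunity-related GTPases, Irgm1, which keeps the others off the host's own membranes, ran from 7.50 to 9.24 TPM in WT and from 9.78 to 11.7 TPM in hSKP2-KI (0.32 ± 0.10 with adjusted p = 0.0340 in limma, and after median-ratio scaling 0.07 ± 0.09 with adjusted p = 0.638), and lost its call from TPM without WT replicate 1, 3 or 4 or hSKP2-KI replicate 1, 2 or 4 (adjusted p up to 0.0836). Irgm2 (0.44 ± 0.18), Igtp (0.30 ± 0.15) and Iigp1 (0.22 ± 0.18) were not called on either scale. The count of called GTPases was 1 without WT replicate 1, WT replicate 4, hSKP2-KI replicate 2 or hSKP2-KI replicate 4.

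**Figure D4:**
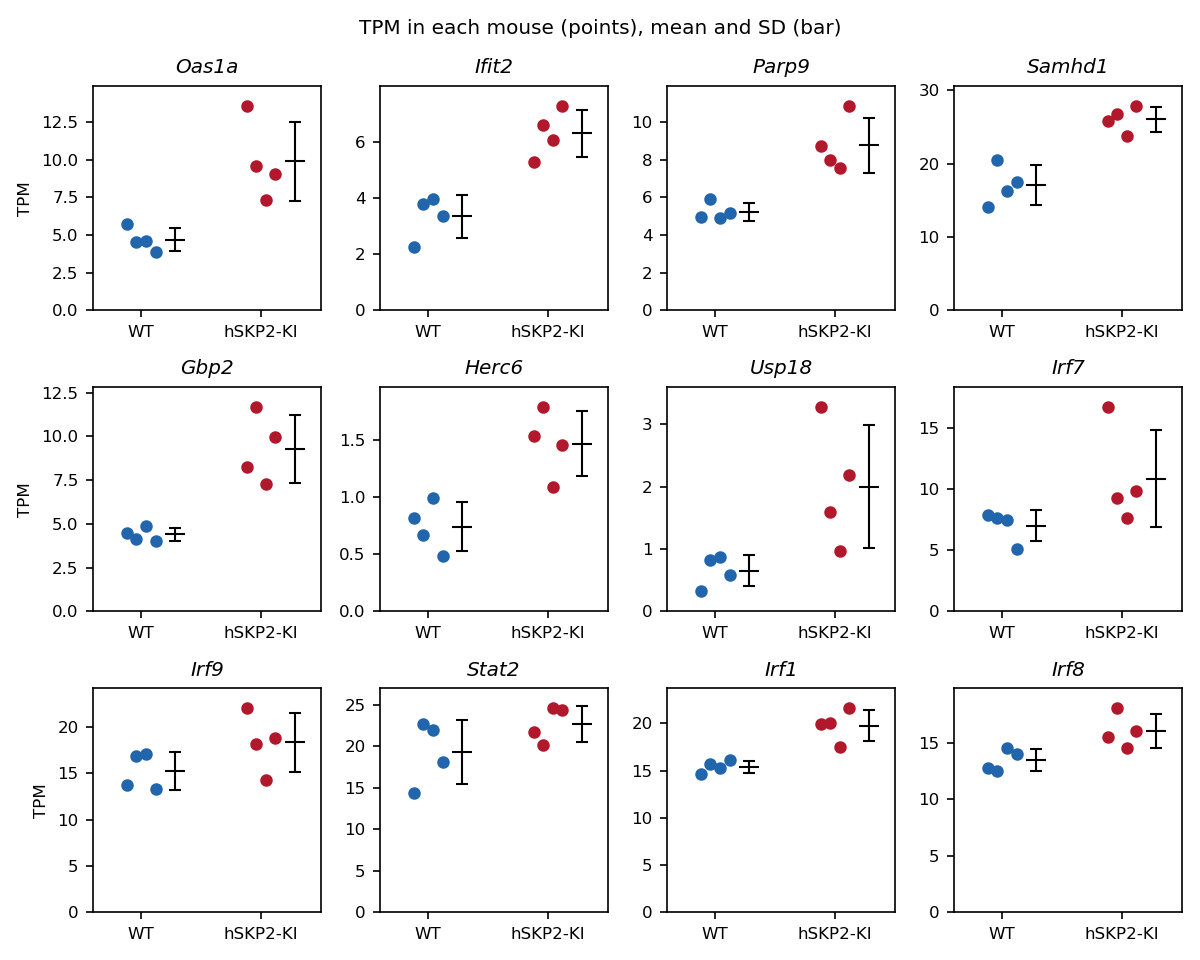
TPM of 12 members in each mouse (points, WT in blue and hSKP2-KI in red) with the mean and SD of each group (n = 4, black). Oas1a, Ifit2, Parp9, Samhd1, Gbp2, Herc6, Usp18 and Irf1 show every hSKP2-KI point above every WT point, and Irf7, Irf9, Stat2 and Irf8 overlap.

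The members did not all peak in the same mouse. Of the 41 members, 18 had their highest hSKP2-KI value in replicate 1, 10 in replicate 2, 3 in replicate 3 and 10 in replicate 4, and 28 had their lowest in replicate 3. Among the type I members alone, 15 of 31 were highest in hSKP2-KI replicate 1. In WT 23 of the 41 were highest in replicate 3, including 6 of the 7 GTPases, and 21 were lowest in replicate 1 and 15 in replicate 4. After median-ratio scaling replicate 3 was highest in 24 members and all 7 GTPases, while the lowest was replicate 1 in 13 and replicate 4 in 20, so the WT mouse most often lowest changed with the scaling. In hSKP2-KI replicate 1 was then highest in 19 members and replicate 3 lowest in 28. The mean log2(TPM + 1) of the 31 type I members ran from 2.46 to 2.77 in WT and from 2.80 to 3.17 in hSKP2-KI, and that of the GTPases from 1.81 to 2.22 and from 2.17 to 2.52, so the type I means did not overlap and the GTPase means did. After median-ratio scaling the type I means overlapped as well, at 2.54 to 2.90 in WT and 2.70 to 3.09 in hSKP2-KI.

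The ligands themselves were almost absent from the table's values. None of the 21 interferon genes passed the filter, and 17 of them, all the interferon alpha genes and Ifnb1 included, were listed at 0 in every library. Ifng was listed at 0 in 7 libraries and at 0.0737 TPM in hSKP2-KI replicate 1. Ifne, Ifnk and Ifnz did not exceed 0.293, 0.119 and 0.533 TPM in any library.

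Of the receptors and signalling genes that are not members, 6 of 14 (42.9%) were called higher and 1 lower from TPM. After median-ratio scaling 1 (7.14%) was called higher and 1 lower. Over all tested genes 32.7% were called higher and 1.23% lower from TPM, and 6.91% and 4.25% after median-ratio scaling. The gene called lower was Irf2, the antagonist that competes with Irf1 for its sites. In PC3 cells the study's discussion instead lists IRF2 among genes whose expression rose with SKP2 overexpression. In these prostates Irf2 stood at 29.0, 28.3, 33.4 and 38.1 TPM in WT and at 18.7, 16.4, 16.9 and 17.4 TPM in hSKP2-KI. Irf2 was lower in 4 of 4 hSKP2-KI libraries on both scales, by -0.85 ± 0.10 in TPM (limma adjusted p = 0.000731) and by -1.10 ± 0.10 after median-ratio scaling (adjusted p = 0.000499) as log2 fold changes, and it kept its call in all 8 fits that left out a library on either scale. Ifngr1, the ligand-binding chain of the interferon gamma receptor, ran from 24.9 to 32.4 TPM in WT and from 37.3 to 48.9 TPM in hSKP2-KI (0.58 ± 0.11 with adjusted p = 0.00413, and after median-ratio scaling 0.31 ± 0.08 with adjusted p = 0.0364). The latter call was kept without WT replicate 2 or hSKP2-KI replicate 1 and lost without any 1 of the other 6 libraries (adjusted p up to 0.0857).

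Ifngr2 (0.44 ± 0.07), Ifnar2 (0.45 ± 0.11) and Il10rb, a chain of the lambda receptor (0.48 ± 0.09), rose in TPM and were not called after median-ratio scaling, while Ifnar1 and Ifnlr1 were called on neither scale. Of the sensors upstream of interferon, 5 of 9 tested (55.6%) were called higher from TPM, against 32.7% of all tested genes. After median-ratio scaling 1 was called higher (11.1%, against 6.91%). That gene was Ikbke, a kinase that phosphorylates interferon regulatory factors, at 4.11 to 6.51 TPM in WT and 8.36 to 10.3 TPM in hSKP2-KI (0.70 ± 0.13 with adjusted p = 0.00472, and after median-ratio scaling 0.46 ± 0.10 with adjusted p = 0.0199), a call lost on the latter scale without hSKP2-KI replicate 2 or 4 (adjusted p up to 0.0508).

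Of 27 further stimulated genes tested outside the module, 12 were called higher (44.4%, against 32.7% of all tested genes) and 0 lower from TPM. After median-ratio scaling 3 were called higher (11.1%, against 6.91%) and 0 lower: Ifit3b, the DNA-binding Ifi204 and the growth regulator Slfn5. They had log2 fold changes of 0.76 ± 0.17, 0.71 ± 0.16 and 0.77 ± 0.15 from TPM and after median-ratio scaling of 0.65 ± 0.16 (adjusted p = 0.0282 in limma), 0.51 ± 0.13 (adjusted p = 0.0379) and 0.53 ± 0.15 (adjusted p = 0.0457). On the latter scale, of the fits that each left out 1 of the 8 libraries, 4 kept the call of Ifit3b, 1 that of Ifi204 (the fit without WT replicate 2) and 2 that of Slfn5 (those without WT replicate 3 or hSKP2-KI replicate 3), while Ifit3b lost it without WT replicate 1 or 4 or hSKP2-KI replicate 2 or 4. The 12 called were all among the 19 type I genes of that list, and 0 of its 8 tested GTPases were called by limma, or had an unadjusted p under 0.05, on either scale. Mx1 and Mx2, the myxovirus resistance genes, were not analysed here.

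Markers of stroma and leukocytes also stood higher in the hSKP2-KI libraries, and their part in the members' values was not tested. Beside each count of called markers, here and below, 32.7% of all tested genes were called higher from TPM and 6.91% after median-ratio scaling. Of the macrophage markers 6 of 7 tested were called higher from TPM and 0 after median-ratio scaling (5 at an unadjusted p under 0.05 in limma), and their summed level ran from 93.8 to 194 TPM in WT and from 213 to 435 TPM in hSKP2-KI. Pan-leukocyte markers had 2 of 4 called (0 after median-ratio scaling), at sums of 26.1 to 56.0 and 47.6 to 100.9 TPM. Fibroblast markers had 5 of 6 called (2), at 371 to 538 and 678 to 1145 TPM, smooth muscle markers 4 of 4 (2), at 1656 to 2066 and 2388 to 3693 TPM, and endothelial markers 4 of 4 (1), at 14.9 to 21.5 and 26.6 to 47.5 TPM. Epithelial markers had 3 of 5 called (0), at 1783 to 1952 and 2035 to 2594 TPM, and basal epithelial markers 2 of 4 (0), at 196 to 305 and 293 to 425 TPM. Monocyte markers had 2 of 3 tested called (0), at 3.95 to 6.91 and 6.81 to 14.5 TPM. Of these, Ly6c2 was not called and had a mean of 2.23 TPM in WT and 1.45 TPM in hSKP2-KI. Chil3, which was not tested, was listed at 0 in every WT library and in hSKP2-KI replicate 1, and stood at 0.127, 4.24 and 5.403 TPM in hSKP2-KI replicates 2, 3 and 4. The labelled tissue held for its own markers, with the 6 ventral prostate secretory genes summing to 410700 to 463600 TPM in WT and to 328800 to 353400 TPM in hSKP2-KI.

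T cell markers summed to 2.54 to 5.76 TPM in WT and 5.16 to 7.31 TPM in hSKP2-KI. Cd3g was called higher from TPM, 1 of 2 tested, and not after median-ratio scaling, and Trac was listed at 0 in every library. Cd8a, below the filter, had a mean of 0.630 TPM in WT and 0.507 TPM in hSKP2-KI. Cd3d (0.372 and 0.659), Cd3e (1.075 and 1.53) and Cd4 (0.562 and 0.708) had the higher mean in hSKP2-KI. Natural killer markers summed to 2.84 to 4.39 and 2.99 to 4.85 TPM, with 0 of 1 tested called and 0 with an unadjusted p under 0.05. Plasmacytoid dendritic markers, from cells known as large producers of type I interferon, summed to 0.598 to 0.871 and 0.553 to 1.23 TPM, dendritic markers to 1.32 to 3.18 and 2.83 to 8.84 TPM, and none of either list reached the filter. B lineage markers spread most among the WT mice, from 10.2 to 67.4 TPM, against 36.9 to 45.4 TPM in hSKP2-KI, with 0 of 5 called and 0 with an unadjusted p under 0.05. The mouse with the highest mean type I level was hSKP2-KI replicate 1, and the mouse with the highest macrophage, leukocyte and fibroblast marker levels was hSKP2-KI replicate 2. In WT, replicate 3 had the highest type I, GTPase, macrophage, leukocyte and B lineage levels, and replicate 2 the highest fibroblast level.

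**Figure D5:**
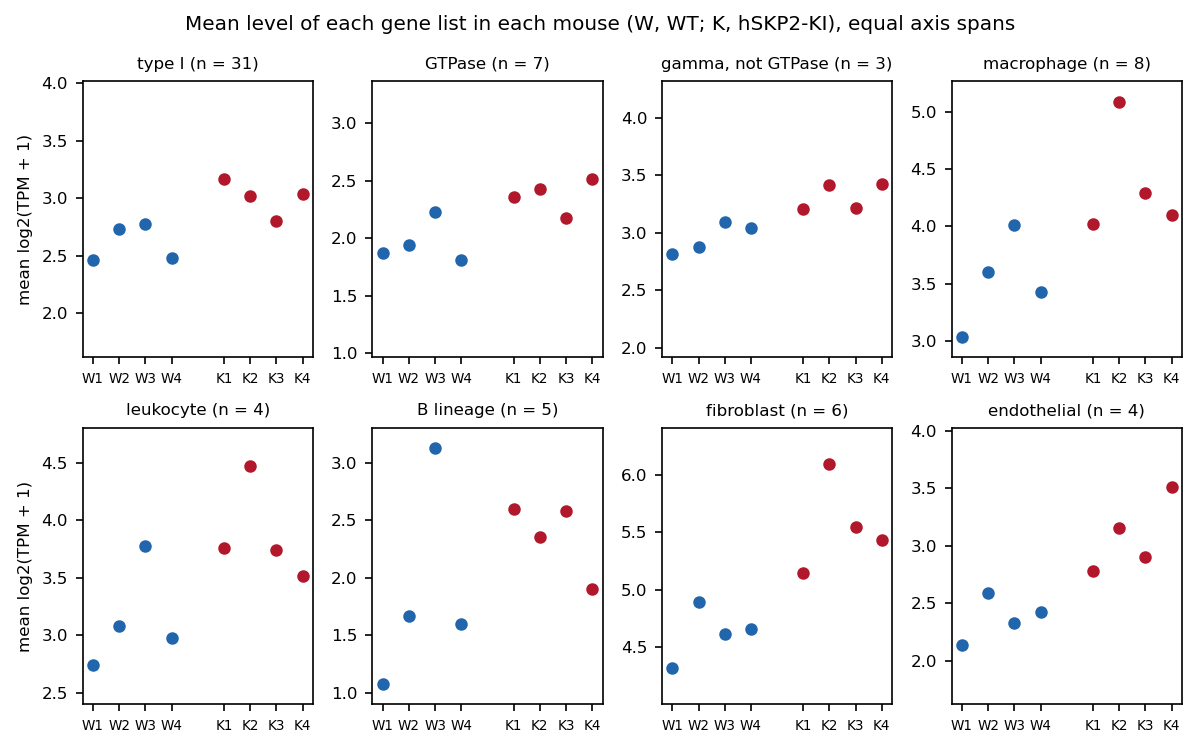
Mean log2(TPM + 1) of the 3 member subgroups and of 5 marker lists in each WT mouse (W1 to W4, blue) and hSKP2-KI mouse (K1 to K4, red), with n the number of genes in each list and all vertical axes of equal span. Type I means run from 2.46 to 2.77 in WT and from 2.80 to 3.17 in hSKP2-KI, K1 is the highest for type I, and K2 is the highest for macrophage, leukocyte and fibroblast markers.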

How the data were processed

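Bulk RNA-seq of ventral prostate was measured in 8 libraries, 4 per genotype, grouped by their labelled genotype. The values are TPM, deposited by the authors, who trimmed paired reads and mapped them to the mouse genome in CLC. The build is mm10 (GRCm38) per the submitters' processing notes. Counting options, strand and annotation release are not given in the sources used here. The table keeps no read counts, so the depth is unknown and no counting interval can be given. Within genotypes, pairs of libraries correlated across genes at 0.981 to 0.990.

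log2(TPM + 1) was fitted with limma 3.58.1 (R 4.3.3, trend) for genes with 1 TPM in 4 libraries or more, with Benjamini-Hochberg adjustment over all tested genes. Fits were tested on simulated data. All members were named. Values in every library were given for those called both in TPM and after median-ratio scaling, for Irf1, Irf7, Irf8, Irf9 and Stat2, and for Ifit2, Usp18 and Herc6. The others were given a range, a log2 fold change or both. Outside the module, the receptors, interferons above 0 and genes called after median-ratio scaling were named, and 1 further item is not reported here. The members and lists were chosen with earlier results of these data known. Alternatives were a pseudocount of 0.1, no filter, median-ratio and quantile scaling, rescaling that omitted the 20 genes of highest TPM, a block for the replicate number, and leaving out each library. Summaries and plots used python 3.11.15, pandas 2.3.3 and matplotlib 3.10.9. The labels number the mice but name no litter or batch, so p-values measure the spread between these mice.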

Additional observations from a re-analysis of the deposited data

Results flagged for a closer look

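In 5 of 82 groups of 4 libraries, the highest or lowest library's gap to its nearest neighbour, as a share of the group's range, exceeded Dixon's critical value for 4 values, and chance gives about 1 in 20. All 5 were in WT. Irf7 was at 5.13 TPM in WT replicate 4, against 7.47 to 7.90 in the others. Zbp1 was at 1.07 TPM in WT replicate 3, against 0.234 to 0.252. Bst2 was at 57.9 TPM in WT replicate 1, against 44.9 to 46.1. Ifi27 was at 54.5 TPM in WT replicate 2, against 62.2 to 63.5. Xaf1 was at 2.78 TPM in WT replicate 3, against 1.02 to 1.204.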

How the results depend on the processing

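The scaling changed the calls most, and a pseudocount of 0.1 changed none of 47 named results. The members called (14 in TPM as deposited) numbered 5 after median-ratio scaling, 3 after quantile normalization, 5 without the 20 most abundant genes and 4 with median-ratio scaling and a replicate block. The type I members called (10) numbered 4, 2, 4 and 3 under these, the GTPases (2) 1 under each and also without a filter, and all genes 1460, 1317, 1314 and 1425. Leaving out 1 library gave 1 to 5 members, 0 to 4 type I members and 788 to 1291 genes after median-ratio scaling, and 1 to 3 GTPases in TPM. Without a filter 11 members were called, and Dtx3l, Rtp4, Irgm1 and Cd274 were not.

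Log2 fold changes that turned negative were, after median-ratio scaling with or without the block, Irf9 -0.0107, Stat2 -0.0168, Trim25 -0.10, Ifih1 -0.10, Dhx58 -0.11, Bst2 -0.10, Ifi27 -0.0452, Lgals3bp -0.26, Trafd1 -0.26, Irf8 -0.0204 and Ifnlr1 -0.11. After quantile normalization they were Irf9 -0.0208, Stat2 -0.0063, Isg15 -0.0155, Trim25 -0.0786, Ifih1 -0.17, Dhx58 -0.24, Bst2 -0.0667, Ifi27 -0.0094, Xaf1 -0.10, Lgals3bp -0.23, Trafd1 -0.21, Gbp3 -0.012, Igtp -0.0265, Iigp1 -0.10, Irf8 -0.0338 and Ifnlr1 -0.17. Without the 20 most abundant genes they were Trim25 -0.0783, Ifih1 -0.0784, Dhx58 -0.10, Bst2 -0.0814, Ifi27 -0.0239, Lgals3bp -0.24, Trafd1 -0.23, Irf8 -0.0002 and Ifnlr1 -0.0902. Leaving out 1 library gave Dhx58 -0.0647 to 0.16, Lgals3bp -0.11 to 0.12 and Trafd1 -0.0282 to 0.0733. The cause was not tested.

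The deviations of mice that share a replicate number from their genotype means correlated at 0.22, -0.11, 0.17 and -0.01 for numbers 1 to 4. Mice of unlike numbers were not compared, so these values cannot show whether the numbers pair the mice. With the replicate block 15 members were called, 10 of type I and 3 GTPases, and 5128 genes in all. Precision is limited by 4 mice per genotype and an unknown depth, and members near 1 TPM are compressed by the pseudocount.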
